A study of Mus musculus with 24 samples.

Results

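The effect of the ligand GW0742 on wild-type mouse keratinocytes carrying an Hras retrovirus was measured across all genes. The comparison took 6 of the 24 arrays in the series: 3 of wild-type cells given the Hras virus for 48 h and the vehicle DMSO, and 3 of the same kind of cells given the virus and 1 uM GW0742 for 24 h. These arrays were chosen by their titles alone, and 19937 genes were tested. All cells were primary keratinocytes of strain C57/BL6, cultured for 2 days before they were infected. The Hras gene in the virus is described as activated, so both groups compared carry the oncogene, and no uninfected cell enters this comparison. Where the effect is set beside other backgrounds, those are wild-type cells that were mock infected, and Ppar-beta null cells that were mock infected or given the Hras virus, each with DMSO or 1 uM GW0742 and 3 arrays per group. The labels do not say what the mock virus carried, how many animals the cells came from, or whether the 3 arrays of a group are separate cultures. P-values therefore rest on array-to-array spread alone, and part of that can be technical.

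PPAR-beta (also called PPAR-delta, the product of Ppard) is a nuclear receptor that binds fatty acids, pairs with RXR and switches on genes for burning and storing fat. GW0742 is a synthetic agonist of it. In the epidermis the receptor has been studied for its part in differentiation, in the lipid barrier and in the response to injury. Keratinocytes divide in the basal layer, then stop and build the granular and cornified layers, where proteins are crosslinked into an envelope and ceramides are laid down between dead cells. Activated Hras drives the ERK pathway, growth factor and cytokine genes, and the early papilloma of mouse skin.

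Levels are log2 expression values from RMA, so a difference of 1 means a 2-fold change, and changes are given as log2 differences (GW0742 minus DMSO) ± standard error from a limma model of all 24 arrays, with n = 3 arrays per group. A gene passed where limma's p-value, adjusted over all genes tested by the Benjamini-Hochberg method, was under 0.05. Rises and falls are named only for genes that passed. Array medians lay between 7.46 and 7.53, and the median SD within a group was 0.0757 for DMSO and 0.0798 for GW0742. The median change over all genes was -0.01. The keratinocyte genes among the markers were at 7.76 to 14.12 in group means, and 1 of 10 passed, Sfn (0.16 ± 0.04, adjusted p = 0.016; its second probe set measured 0.09 and did not pass). Marker genes of other cells were also on the arrays. Melanocyte genes reached group means of 11.66, their summed linear level was 8226 to 9392 over the DMSO arrays and 8944 to 9862 over the GW0742 arrays, and 1 of 14 passed, Trpm1 (0.25 ± 0.07). Leukocyte and Langerhans cell genes had 16 of 18 members below the median of all genes and 2 passing, H2-Ab1 (0.85 ± 0.16) and Cd68 (0.49 ± 0.11). Their summed level was 5031 to 5480 with DMSO and 5065 to 5249 with GW0742. Fibroblast genes (1 of 15 passing, Pdgfra at 0.30 ± 0.09) summed to 12520 to 14000 with DMSO and 13240 to 14230 with GW0742. None of 9 endothelial genes and 1 of 5 Merkel cell genes, Isl1 (0.57 ± 0.09), passed. The part of other cells in the results was not tested. In cell cultures measured in bulk, more cells of a state and more RNA per cell cannot be told apart.

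GW0742 raised 890 genes and lowered 329 in wild-type Hras cells. Of all genes tested 6.11% passed, 4.46% as higher and 1.65% as lower. Rises were larger than falls: the median change was 0.41 among the higher and -0.29 among the lower genes, with a median standard error of 0.08 over all genes. A change of at least 1.5-fold was reached by 283 of the higher and 11 of the lower genes, of at least 2-fold by 101 and 1, and of at least 4-fold by 9 and 0. The genes that passed were well expressed, with a median DMSO level of 9.60 for those that rose and 9.79 for those that fell, against 7.90 for all genes. The 3 GW0742 arrays lay wholly above the 3 DMSO arrays for 879 of the 890 and wholly below for 322 of the 329. Over all genes this held for 11.3% and 10.9%. The genes passed on these same 6 arrays, so their separation follows in large part from that choice and is no independent support. Named genes were followed through up to 12 refits of the model. With only the 6 arrays in the model, genes named below that missed the threshold included Bdh1, Pcx, Slc2a1, Ldha, Krt16, Serpinb9d and Kif11. The adjusted p-values of these genes there ran from 0.0538 to 0.114. Lrig3 and Krt1 missed it there too, and further losses are given where genes are named. The marker genes Sfn, Trpm1 and Pdgfra missed the threshold under 5, 5 and 7 settings.

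**Figure D1:**
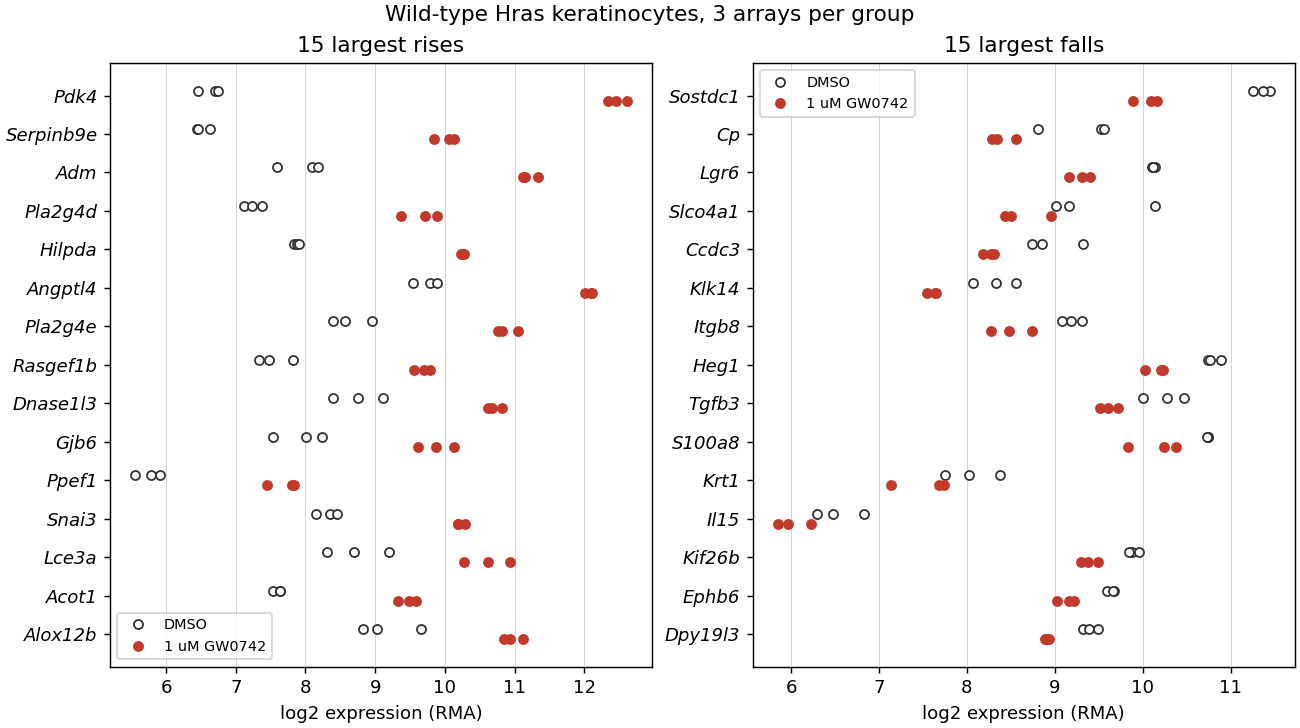
Log2 expression of the 15 largest rises (left) and 15 largest falls (right) in wild-type Hras cells, one point per array, open for DMSO and filled for 1 uM GW0742. Predicted and unnamed transcripts, and genes whose arrays overlapped between the groups, were left out of this ranking. Pdk4 goes from 6.45 to 6.75 with DMSO to 12.33 to 12.61 with GW0742, and no fall is as large as any of the rises drawn.

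Gene lists drawn up by function, with earlier results of these data known, were then counted. The shares therefore describe the lists and are no independent support. Glycolysis, other targets of the hypoxia factor HIF, the cornified envelope, mitochondrial beta-oxidation and the lipid barrier had the highest shares of members that rose, between 48.4% and 66.7%, against 4.46% of all genes. Cell cycle, integrin and Wnt and BMP lists held more falls than rises. None of 64 respiratory chain subunits passed, and their changes lay between -0.12 and 0.14 with a median of 0.01.

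**Figure D2:**
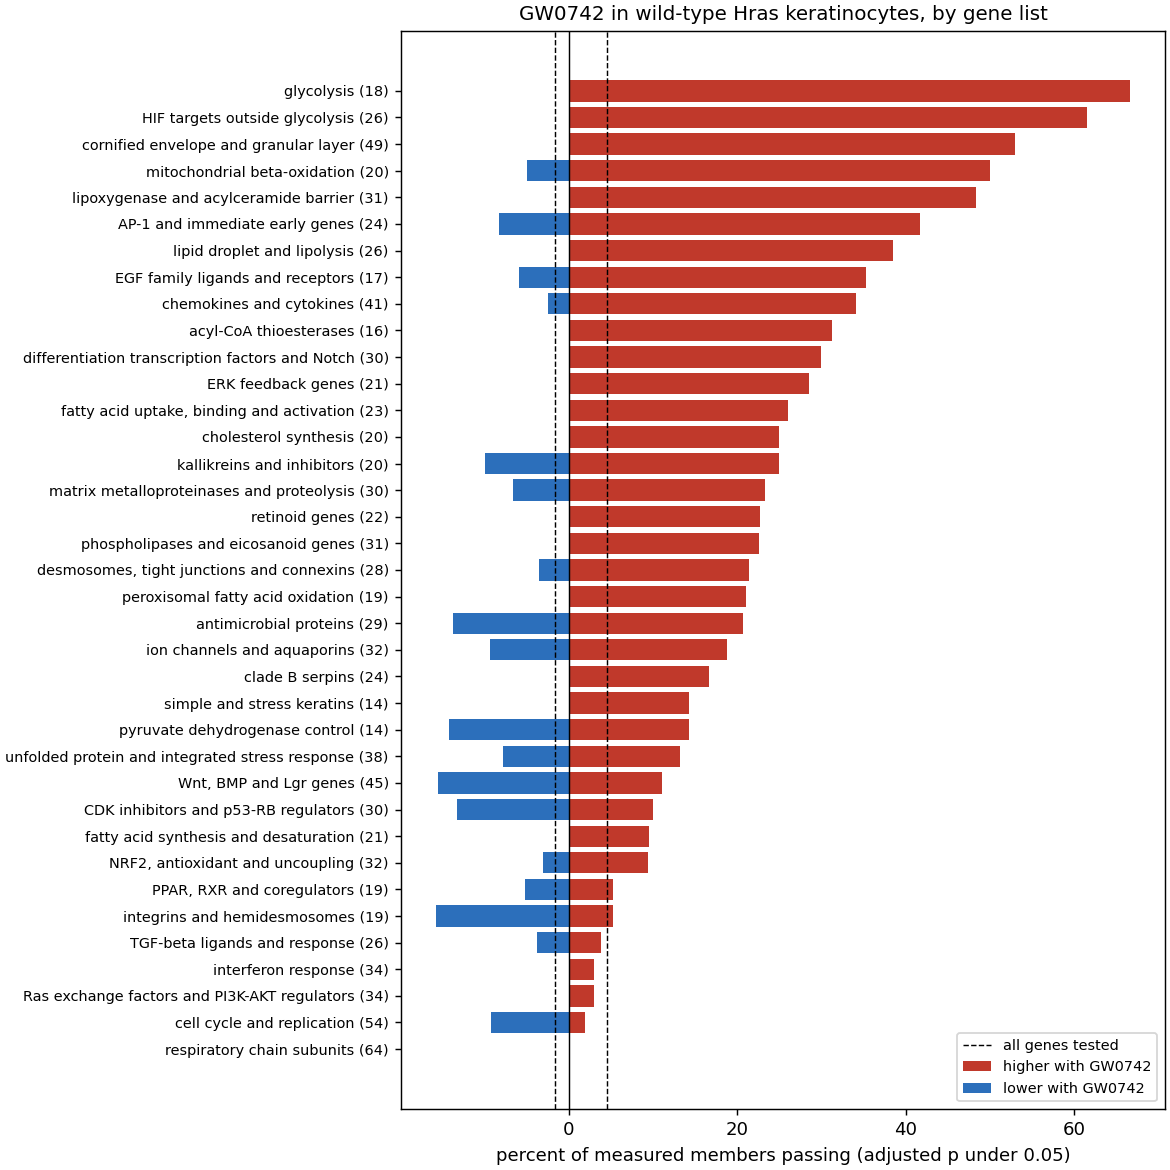
Percent of each gene list's measured members (number in brackets) that were higher (right) or lower (left) with GW0742 in wild-type Hras cells at an adjusted p under 0.05, for lists of 14 or more members. Dashed lines mark the shares over all genes tested, 4.46% higher and 1.65% lower, and glycolysis stands at the top with 12 of 18 members higher.

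Pdk4, the kinase that shuts off pyruvate dehydrogenase and so turns cells from glucose to fat, made the largest move of any gene. Its DMSO arrays read 6.71, 6.45 and 6.75 and its GW0742 arrays 12.33, 12.45 and 12.61. The groups were far apart, and the change was 5.83 ± 0.08 (adjusted p = 1.04e-21). Of the 14 measured genes that control this step, Pdk1 also rose (0.46 ± 0.08), while Mpc1, a subunit of the carrier that brings pyruvate into mitochondria (-0.38 ± 0.07), and Pcx, pyruvate carboxylase (-0.26 ± 0.05), fell. The other 10 did not pass, Pdk2 among them (-0.14 ± 0.09, adjusted p = 0.539).

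Of 9 genes of the carnitine shuttle and of ketone metabolism 4 rose and 2 fell, with a median of -0.05. Cpt1a, the gate of the carnitine shuttle, read 10.71, 10.66 and 10.57 with DMSO and 12.06, 12.09 and 12.03 with GW0742, a change of 1.42 ± 0.07 (adjusted p = 4.34e-12). Cpt2, which completes the transfer inside the membrane, rose by 0.91 ± 0.07 and the carrier Slc25a20 by 0.85 ± 0.06. The ketone-using enzyme Oxct1 fell (-0.48 ± 0.06), as did the ketone body dehydrogenase gene Bdh1 (-0.21 ± 0.05).

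Of 20 mitochondrial beta-oxidation genes 10 rose, 1 fell and 9 did not pass (median 0.23). The arrays of Hadhb, a subunit of the trifunctional protein, read 9.24, 9.38 and 9.42 with DMSO and 10.58, 10.70 and 10.67 with GW0742 (1.30 ± 0.06). Its partner Hadha rose by 1.02 ± 0.05. The auxiliary enzymes for unsaturated fatty acids, Eci2 (1.12 ± 0.09) and Decr1 (0.93 ± 0.10), rose by similar amounts, and so did the thiolase Acaa2 (0.89 ± 0.07). Among the acyl-CoA dehydrogenases, the first step, Acadl rose by 0.70 ± 0.06 and Acadvl by 0.36 ± 0.07. Etfdh, which passes their electrons on, rose by 0.54 ± 0.09. Of 19 peroxisomal genes 4 rose and 0 fell, among them Ech1, an isomerase (0.74 ± 0.08), and Abcd3, a transporter of the peroxisome membrane (0.41 ± 0.05).

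Acyl-CoA thioesterases release free fatty acids from coenzyme A. Of 16 such genes 5 rose and 0 fell. Acot1 read 7.54, 7.64 and 7.64 with DMSO and 9.48, 9.59 and 9.33 with GW0742 (1.86 ± 0.08, adjusted p = 1.45e-12). Acot4 rose by 1.06 ± 0.13, Acot2 by 0.85 ± 0.10, Acot5 by 0.77 ± 0.10 and Acot6 by 0.33 ± 0.06. These genes are near copies of each other in part, so some signal may be shared between their probe sets.

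Fat storage genes moved as well, with 10 of 26 droplet and lipolysis genes higher and 0 lower (median 0.17). Hilpda, an inhibitor of droplet lipolysis that hypoxia induces, read 7.83, 7.88 and 7.90 with DMSO and 10.27, 10.24 and 10.23 with GW0742. Both groups were tight, and the change of 2.38 ± 0.05 had the smallest standard error of the 15 largest rises among named genes (adjusted p = 1.05e-17). Plin2, the coat protein of droplets, rose by 1.32 ± 0.05 from DMSO arrays of 12.27, 12.21 and 12.21. The triglyceride synthesis genes Dgat2 (0.90 ± 0.12) and Gpat3 (0.79 ± 0.10) rose, as did the droplet protein gene Cidea (0.72 ± 0.13) and Lpin2 (0.67 ± 0.11), which makes diacylglycerol. Of 23 genes of uptake, binding and activation 6 rose. Angptl4, a secreted inhibitor of lipoprotein lipase, led with arrays of 9.79, 9.88 and 9.55 and 12.02, 12.10 and 12.11 (2.34 ± 0.11). Fabp4, a fatty acid carrier, followed (1.60 ± 0.11), then the acyl-CoA synthetase gene Acsbg1 (1.09 ± 0.07) and Slc27a4, a fatty acid transport protein of the skin barrier (0.63 ± 0.06).

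Glycolysis genes rose in 12 of 18 cases and fell in 0, with a median of 0.27. Pfkfb3, whose product makes the activator of phosphofructokinase, read 8.70, 8.89 and 9.15 with DMSO and 9.80, 10.30 and 10.58 with GW0742. The groups did not overlap, but the arrays spread more than for most genes (1.31 ± 0.19, adjusted p = 8.51e-05). The lactate exporter gene Slc16a3 rose by 0.76 ± 0.08, the phosphofructokinase genes Pfkp by 0.71 ± 0.08 and Pfkl by 0.64 ± 0.06, hexokinase 2 (Hk2) by 0.67 ± 0.08 and aldolase C (Aldoc) by 0.55 ± 0.08. Slc2a1, the glucose transporter, rose by 0.30 ± 0.06 and Ldha by 0.19 ± 0.04.

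Of 26 HIF targets outside glycolysis 16 rose and 0 fell (median 0.43). Adm, which encodes the vasodilator peptide adrenomedullin, was the third largest rise among named genes, with predicted and unnamed transcripts left aside. Its arrays read 7.60, 8.10 and 8.18 with DMSO and 11.12, 11.15 and 11.33 with GW0742 (3.24 ± 0.16, adjusted p = 1.21e-11). Egln3, an oxygen-sensing hydroxylase that marks HIF for destruction and is itself a HIF target, read 9.53, 9.61 and 9.83 and 11.05, 10.98 and 11.42 (1.49 ± 0.15). The mitophagy gene Bnip3 rose by 0.98 ± 0.12, the adenylate kinase gene Ak4 by 0.83 ± 0.11, Ndrg1 by 0.81 ± 0.08 and Fam162a by 0.62 ± 0.07. Vegfa, the vessel growth factor, measured 0.17 ± 0.06 (adjusted p = 0.0863). Car9, a carbonic anhydrase, passed with all arrays (0.41 ± 0.12, adjusted p = 0.0385) and missed the threshold in 5 of 11 refits, with adjusted p-values up to 0.183. Vegfa passed in 2 of 12 refits, with trend and robust moderation (adjusted p = 0.0377) and with the 40% dimmest genes left out (adjusted p = 0.0398).

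The promoters of the glycolysis and HIF lists are shown because their genes moved together. HIF binds a core written ACGTG, which was searched on both strands in the 250 bases before each RefSeq start, build GRCm38.p6. Windows are written 5′ to 3′. Over all genes the core was in 201 of 939 windows of genes that rose (21.4%) and 71 of 361 of genes that fell (19.7%). It was present in 14 of 27 windows of 17 glycolysis genes (51.9%) and in 16 of 33 windows of 23 other HIF targets (48.5%), against 16.6% of all 32851 windows. Mitochondrial beta-oxidation genes had it in 1 of 17 windows and the respiratory chain, none of whose genes passed, in 14 of 58 (24.1%). The HIF list was made of genes already known as targets. Its name, HIF targets outside glycolysis, treats glycolysis genes as targets too. A high share in either list is therefore no independent result. The windows printed were picked because they hold the core; those of Adm and Pfkp do not. Capitals mark the core, or its reverse complement, in these windows, which end 1 base before the start and are written along the gene:
Slc16a3: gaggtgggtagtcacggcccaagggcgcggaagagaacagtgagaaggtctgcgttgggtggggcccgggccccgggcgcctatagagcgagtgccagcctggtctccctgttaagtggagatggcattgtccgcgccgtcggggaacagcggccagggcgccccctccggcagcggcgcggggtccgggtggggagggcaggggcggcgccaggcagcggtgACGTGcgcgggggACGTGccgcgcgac
Hk2: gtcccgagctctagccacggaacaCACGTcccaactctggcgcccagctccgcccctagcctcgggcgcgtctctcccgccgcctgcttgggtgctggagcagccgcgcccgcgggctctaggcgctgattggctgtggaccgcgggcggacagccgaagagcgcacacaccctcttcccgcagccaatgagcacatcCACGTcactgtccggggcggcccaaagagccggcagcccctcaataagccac
Bnip3: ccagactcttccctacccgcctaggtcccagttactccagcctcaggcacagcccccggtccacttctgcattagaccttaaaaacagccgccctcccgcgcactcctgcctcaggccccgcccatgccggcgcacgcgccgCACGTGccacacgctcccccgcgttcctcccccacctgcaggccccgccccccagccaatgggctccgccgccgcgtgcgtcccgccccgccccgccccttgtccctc
Egln3: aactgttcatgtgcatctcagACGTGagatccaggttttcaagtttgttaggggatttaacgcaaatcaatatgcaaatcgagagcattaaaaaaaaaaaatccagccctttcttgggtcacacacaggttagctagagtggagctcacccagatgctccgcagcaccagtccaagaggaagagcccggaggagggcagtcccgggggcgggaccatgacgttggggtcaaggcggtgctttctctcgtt
These lie at chr11:120948817-120949066, forward strand, for Slc16a3, at chr6:82774455-82774704, reverse strand, for Hk2, at chr7:138909507-138909756, reverse strand, for Bnip3, and at chr12:54203875-54204124, reverse strand, for Egln3. In Bnip3 the core overlaps its own reverse complement. A direct repeat of the kind PPAR and RXR bind, AGGNCANAGGNCA on either strand, was in 2 of 939 windows of genes that rose (0.213%), 1 of 361 of genes that fell (0.277%) and 0.338% of all windows. Pdk4 and the 17 windows of beta-oxidation genes held none. A match is a description of letters in a short window, and its lack says nothing about the receptor elsewhere.

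Phospholipases that free arachidonic and other fatty acids from membranes were among the largest rises. Pla2g4d read 7.11, 7.23 and 7.38 with DMSO and 9.37, 9.71 and 9.89 with GW0742 (2.41 ± 0.15), its neighbour in the gene family Pla2g4e read 8.39, 8.57 and 8.95 and 10.76, 10.82 and 11.04 (2.24 ± 0.15), and Pla2g4f rose by 1.27 ± 0.13. Downstream, Ptgs2 (cyclooxygenase 2, 0.69 ± 0.09) and Ptges (a prostaglandin E synthase, 0.54 ± 0.07) rose. So did Hpgd, which breaks prostaglandins down (1.31 ± 0.15). In all 7 of 31 genes rose and 0 fell, with a median of 0.02.

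Genes for the lipid barrier rose in 15 of 31 cases and fell in 0 (median 0.24). Their list means were 9.60, 9.73 and 9.83 on the DMSO arrays and 10.09, 10.14 and 10.20 on the GW0742 arrays. Among the DMSO arrays, array 1 was the lowest for 19 of the 31 genes and array 3 the highest for 16. Alox12b, a lipoxygenase whose loss causes ichthyosis, read 8.82, 9.02 and 9.65 with DMSO and 10.84, 10.93 and 11.12 with GW0742 (1.80 ± 0.17, adjusted p = 3.23e-07). The next enzymes of the same pathway also rose: Aloxe3 by 1.30 ± 0.17 and Sdr9c7 by 1.64 ± 0.22. Pnpla1, which makes acylceramides, rose by 1.26 ± 0.16, and the ceramide enzymes Degs2 by 1.24 ± 0.19, Acer1 by 0.96 ± 0.17, Cers3 by 0.43 ± 0.07 and Ugcg by 0.63 ± 0.12. Abca12, the lipid transporter of lamellar granules, passed with all arrays (0.37 ± 0.10, adjusted p = 0.0256) and missed the threshold in 5 of 12 refits, with adjusted p-values up to 0.198.

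The cornified envelope list held the most rises in number, 26 of 49, with 0 falls and a median of 0.47. Lce3a, a late envelope protein gene, read 8.30, 8.70 and 9.20 with DMSO and 10.28, 10.62 and 10.93 with GW0742 (1.88 ± 0.20). Lce3e (1.62 ± 0.25) and Lce3f (1.52 ± 0.20) from the same cluster rose, as did the small proline-rich genes Sprr2g (1.72 ± 0.22) and Sprr2f (1.54 ± 0.15). Tgm1, the crosslinking enzyme, read 9.97, 10.15 and 10.24 and 11.31, 11.26 and 11.50 (1.24 ± 0.11), and involucrin (Ivl) rose by 0.74 ± 0.08. Some late genes did not pass. Loricrin (Lor) measured 0.00 ± 0.15 (adjusted p = 0.997) and repetin (Rptn) -0.66 ± 0.21 (adjusted p = 0.0678), which passed as lower without DMSO array 1 (adjusted p = 0.00105). Members of the Sprr2 and Lce3 families are close copies, and their probe sets may share signal.

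The DMSO arrays differed among themselves in these genes. Array 3 was the highest DMSO array for 45 of the 49 cornified genes and array 1 the lowest for 43. The mean of all 49 was 9.60, 9.85 and 10.15 on the DMSO arrays and 10.34, 10.46 and 10.51 on the GW0742 arrays, so the groups did not overlap, but the gap from DMSO array 3 to GW0742 array 1 was smaller than the spread within DMSO. Mitochondrial beta-oxidation genes did not show this: their DMSO means were 9.60, 9.57 and 9.55 and their GW0742 means 9.89, 9.98 and 9.90. Glycolysis genes had DMSO means of 11.19, 11.20 and 11.26 and GW0742 means of 11.52, 11.58 and 11.66. When any 1 of the 6 arrays was left out, the number of cornified genes that rose was between 24 and 33.

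**Figure D3:**
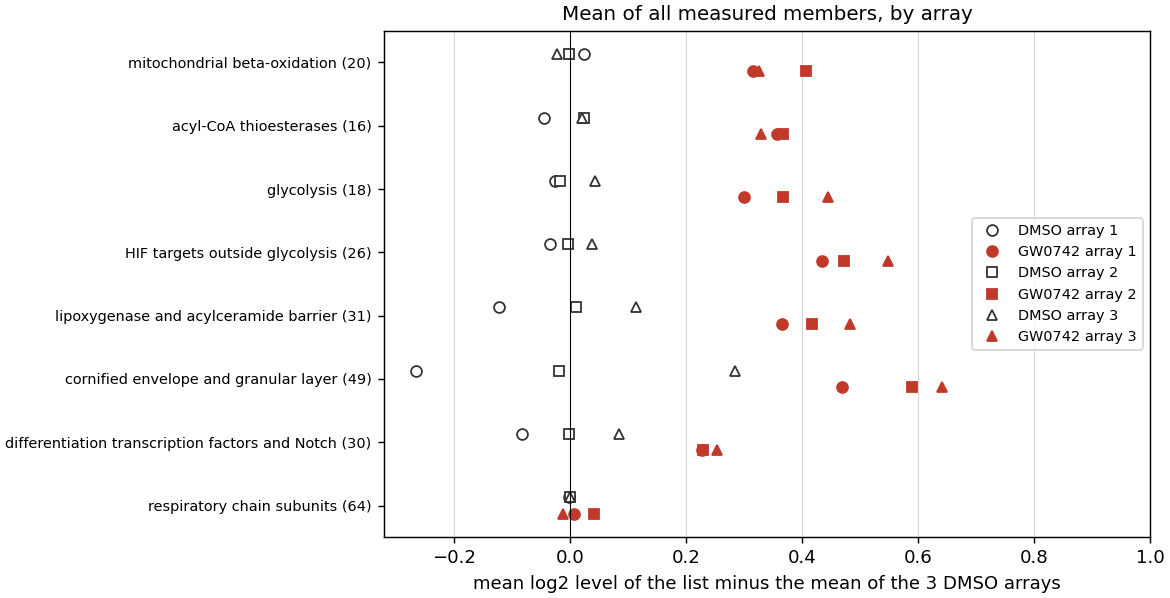
Mean log2 level of all measured members of 8 gene lists on each of the 6 arrays (open DMSO, filled GW0742; symbol shape gives the array number), less the mean of the 3 DMSO arrays. The cornified list spreads most among the DMSO arrays, with means from 9.60 to 10.15, while beta-oxidation spreads little and the respiratory chain shows no shift.

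In the promoters of the cornified list the AP-1 site TGACTCA, searched on both strands, was in 15 of 47 windows (31.9%), against 4.46% of all windows. Over all genes that rose it was in 80 of 939 windows (8.52%), and over those that fell in 12 of 361 (3.32%). The cornified list was chosen with earlier results known, and it holds close copies such as the Sprr2 and Lce3 genes. Windows of such copies may share sequence, so the share in this list is no independent result. Of the cornified genes with the largest changes, windows of Lce3a, Lce3e, Sprr2f, Lce3f and Tgm1 were read, and of these Sprr2f alone had the site. Its window is printed with the site in capitals, and this gene was picked after the windows were searched:
Sprr2f: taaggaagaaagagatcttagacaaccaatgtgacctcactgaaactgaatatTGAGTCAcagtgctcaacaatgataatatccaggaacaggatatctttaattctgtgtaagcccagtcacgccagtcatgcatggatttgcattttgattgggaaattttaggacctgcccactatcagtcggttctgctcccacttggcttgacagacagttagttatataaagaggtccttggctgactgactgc
It lies at chr3:92364937-92365186, forward strand.

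Of 30 transcription factors of differentiation 9 rose and 0 fell. The DMSO arrays differed here too, with array 3 the highest DMSO array for 22 of the 30 and array 1 the lowest for 20. The list means were 9.64, 9.72 and 9.81 with DMSO and 9.95, 9.95 and 9.98 with GW0742. Prdm1, a transcriptional repressor found in the granular layer, read 9.49, 9.93 and 10.23 with DMSO and 11.03, 11.05 and 11.11 with GW0742 (1.18 ± 0.17). Hopx (1.03 ± 0.11), Ovol1 (0.86 ± 0.10), Grhl3, a barrier regulator (0.80 ± 0.08), Zfp750 (0.67 ± 0.12) and Elf3 (0.67 ± 0.10) rose. Of 10 basal and suprabasal keratins 1 rose and 1 fell: Krt80 rose (0.63 ± 0.12), Krt5 measured -0.06 ± 0.04, Krt14 0.02 ± 0.04 and Krt10 0.01 ± 0.09, none of these 3 passing. Krt1, an early keratin of differentiation, fell, with DMSO arrays of 7.75, 8.02 and 8.38 and GW0742 arrays of 7.14, 7.74 and 7.69 (-0.53 ± 0.13, adjusted p = 0.0144). That call was lost in 3 of 12 refits, with adjusted p-values up to 0.208. Among keratins of stress and simple epithelia Krt23 (1.20 ± 0.17) and Krt16 (0.54 ± 0.11) rose.

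Junction and channel genes of the upper layers rose in part. The connexin gene Gjb6 read 7.53, 8.01 and 8.24 with DMSO and 9.62, 9.87 and 10.13 with GW0742 (1.95 ± 0.17), and its partner Gjb2 rose by 1.59 ± 0.15. The desmosomal cadherin gene Dsc2 rose by 0.69 ± 0.08, whereas the tight junction gene Cldn8 fell (-0.41 ± 0.07). Scnn1g (1.24 ± 0.16) and Scnn1b (1.16 ± 0.16), which encode parts of a sodium channel of epithelia, rose. Of 20 kallikreins and their inhibitors, proteases that shed the cornified layer, 5 rose, among them Klk9 (0.91 ± 0.13) and Klk6 (0.50 ± 0.11), and 2 fell; the rises numbered 3 without DMSO array 1, GW0742 array 2 or GW0742 array 3. The means of this list were 10.33, 10.43 and 10.55 with DMSO and 10.53, 10.54 and 10.62 with GW0742, so the groups overlapped. Klk14 went down, with DMSO arrays of 8.07, 8.33 and 8.55 and GW0742 arrays of 7.63, 7.65 and 7.55 (-0.71 ± 0.10).

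Serpinb9e, of the clade B serpins, a family of intracellular protease inhibitors, was the second largest rise among named genes. Its arrays read 6.45, 6.46 and 6.63 with DMSO and 10.13, 9.84 and 10.06 with GW0742 (3.50 ± 0.19, adjusted p = 3.02e-11). Its family did not follow as a whole: 4 of 24 clade B serpins rose (2 with only the 6 arrays in the model), and the next was Serpinb9d at 0.60 ± 0.12. Other large single rises were Rasgef1b, a guanine exchange factor for Ras-family proteins (7.33, 7.48 and 7.82 against 9.55, 9.71 and 9.78, 2.14 ± 0.14), the nuclease gene Dnase1l3 (1.95 ± 0.15), the phosphatase gene Ppef1 (1.94 ± 0.13), Snai3, of the Snail family of repressors (1.90 ± 0.08), and Lgals9, galectin 9 (1.57 ± 0.09). Of the 34 Ras exchange and PI3K genes listed Rasgef1b was the 1 that passed.

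In the list of EGF family ligands and receptors 6 of 17 genes rose and 1 fell, Lrig3 (-0.24 ± 0.06). That fall was not called without DMSO array 2 or GW0742 array 1, or with only the 6 arrays in the model. Epiregulin (Ereg) read 8.48, 8.59 and 8.87 with DMSO and 9.54, 9.81 and 9.73 with GW0742 (1.05 ± 0.09). Hbegf rose by 0.95 ± 0.06, Epgn by 0.65 ± 0.13, Tgfa by 0.48 ± 0.07 and Nrg1 by 0.45 ± 0.07. The receptor Egfr measured 0.08 ± 0.06 (adjusted p = 0.542). Feedback genes of ERK signalling, which this oncogene already drives, rose in 6 of 21 cases, led by the phosphatases Dusp1 (0.72 ± 0.07) and Dusp5 (0.71 ± 0.08) and by Phlda1 (0.58 ± 0.07). Dusp6 measured 0.09 ± 0.07 (adjusted p = 0.607).

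Immediate early genes rose in 10 of 24 cases and fell in 2. Fos, a partner in the AP-1 dimer, read 7.68, 7.81 and 7.72 with DMSO and 9.35, 9.56 and 9.61 with GW0742 (1.77 ± 0.12, adjusted p = 7.72e-10). Egr1 (1.01 ± 0.14), Egr2 (0.98 ± 0.13), Fosl1 (0.66 ± 0.09), Maff (0.57 ± 0.10), Jun (0.54 ± 0.09) and Junb (0.44 ± 0.08) rose with it. Of the 2 that fell, both were orphan receptors of the Nr4a family, Nr4a2 (-0.47 ± 0.07) and Nr4a1 (-0.41 ± 0.09).

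Cytokine and chemokine genes rose in 14 of 41 cases and fell in 1, Il15 (-0.52 ± 0.13). The number of falls was 0 without DMSO array 3, GW0742 array 1 or GW0742 array 2, and 2 without DMSO array 1. The neutrophil chemokines Cxcl2 (7.73, 7.78 and 7.73 against 9.32, 8.88 and 8.84, 1.26 ± 0.16) and Cxcl1 (1.08 ± 0.14) rose. Members of the interleukin 1 family also rose: Il1f6 (1.16 ± 0.10), Il1f9 (0.98 ± 0.14) and the interleukin 1 receptor antagonist gene Il1rn (0.99 ± 0.09). Csf2, a myeloid growth factor, rose by 0.95 ± 0.22 (adjusted p = 0.00895), a call lost in 2 of 12 refits with adjusted p-values up to 0.0649. Of 34 interferon response genes 1 rose (Isg20, 0.39 ± 0.07). Of 30 proteolysis genes 7 rose, among them the collagenase Mmp13 (8.49, 8.65 and 9.41 against 10.36, 10.09 and 10.29, 1.40 ± 0.22), tissue plasminogen activator Plat (0.95 ± 0.10), the urokinase receptor Plaur (0.63 ± 0.09) and Mmp10 (0.54 ± 0.10). Antimicrobial genes split: Defb14 (1.38 ± 0.20), Pglyrp4 (0.89 ± 0.14) and Slpi (0.69 ± 0.08) were among 6 that rose, and S100a8 (-0.59 ± 0.15, adjusted p = 0.0181) among 4 that fell. That call was lost in 3 of 12 refits, with adjusted p-values up to 0.134. The falls in this list were the less stable, with 0 left without DMSO array 1 or without GW0742 array 2.

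Of 13 genes of cholesterol efflux and LXR signalling 3 rose and 1 fell, and of 22 retinoid genes 5 rose and 0 fell. The retinoid rises numbered 2 without DMSO array 3 or GW0742 array 3, and 3 without DMSO array 2. The cholesterol exporter Abca1 read 9.59, 9.54 and 9.59 with DMSO and 11.02, 11.14 and 11.22 with GW0742 (1.55 ± 0.07), and Lpcat3, which remodels phospholipids, rose by 0.63 ± 0.05. Mylip, which degrades the LDL receptor, fell (-0.48 ± 0.07). Of 20 cholesterol synthesis genes 5 rose, Hsd17b7 most (0.48 ± 0.05), with Mvd, Lss and Insig1 between 0.26 and 0.32. Dhrs9, which oxidises retinol and steroids, read 7.67, 7.88 and 8.44 and 9.66, 9.60 and 9.94 (1.73 ± 0.19). Of the receptors themselves, Ppard measured 0.17 ± 0.06 (adjusted p = 0.114) from DMSO arrays of 11.61, 11.63 and 11.69, and Rxra 0.08 ± 0.05, neither passing; Ppard passed in 2 of 12 refits (adjusted p = 0.0425 without the null Hras GW0742 group and 0.0468 with trend and robust moderation). Among antioxidant genes Me1, a source of NADPH, rose by 0.69 ± 0.05 and haem oxygenase 1 (Hmox1) by 0.86 ± 0.13, while 28 of 32 did not pass.

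Falls were fewer and smaller than rises. Sostdc1, a secreted antagonist of BMP and Wnt signals, was the only gene that fell by at least 2-fold: its arrays read 11.26, 11.44 and 11.37 with DMSO and 9.88, 10.10 and 10.16 with GW0742 (-1.31 ± 0.07, adjusted p = 8.3e-11). Lgr6, a Wnt-boosting receptor of skin stem cells, read 10.10, 10.14 and 10.11 and 9.39, 9.16 and 9.30 (-0.83 ± 0.13). Wnt10a (-0.49 ± 0.05) and Bmp4 (-0.28 ± 0.06) also fell. In that list of 45 genes 7 fell and 5 rose, and with 1 array left out the falls numbered 4 to 5 (4 without DMSO array 2, GW0742 array 2 or GW0742 array 3). The rises numbered 1 to 4, with 1 left without DMSO array 1 or GW0742 array 3 and 3 without DMSO array 2, DMSO array 3 or GW0742 array 1. Cp, the copper oxidase ceruloplasmin, had DMSO arrays of 9.53, 9.56 and 8.80 and GW0742 arrays of 8.55, 8.29 and 8.34 (-0.90 ± 0.16). Of 19 integrin and hemidesmosome genes 3 fell, Itgb8, an activator of latent TGF-beta, most (9.19, 9.31 and 9.09 against 8.28, 8.74 and 8.48, -0.69 ± 0.11). The membrane protein gene Heg1 fell (-0.64 ± 0.09), and so did Tgfb3, a TGF-beta ligand (-0.64 ± 0.17, adjusted p = 0.0214), whose call was lost in 4 of 12 refits with adjusted p-values up to 0.139. Without GW0742 array 3 the integrin list held 1 fall.

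Of 54 cell cycle genes 5 fell and 1 rose, against 1.65% and 4.46% of all genes, with a median of -0.12 against -0.01 for all genes. Single arrays stood apart in this list: DMSO array 3 was the highest DMSO array for 42 of the 54 genes, and GW0742 array 2 the highest GW0742 array for 40. The list means were 10.18, 10.22 and 10.30 with DMSO and 10.10, 10.22 and 10.14 with GW0742, so the groups overlapped. Nusap1 (-0.33 ± 0.07), Kif11 (-0.32 ± 0.07) and Mki67 (-0.29 ± 0.07, adjusted p = 0.0133) were among the falls; Top2a passed on one probe set (-0.28 ± 0.07) and measured -0.03 on its other. Mki67 missed the threshold in 4 of 12 refits and Top2a in 3, with adjusted p-values up to 0.115 and 0.0896. The number of falls was 2 without DMSO array 3 or GW0742 array 3, 10 under trend and robust moderation, and 1 when the model held the 6 arrays alone. Of 30 CDK inhibitors and p53-RB regulators 3 rose and 4 fell, with a median of -0.05. With 1 array left out the rises numbered 2 to 4 and the falls 1 to 3, and with the 6 arrays alone there were 2 rises and 0 falls. The senescence and cell cycle brakes Cdkn2a (-0.12 ± 0.10) and Cdkn2b (-0.25 ± 0.11) did not pass.

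Fewer genes passed without Hras. In wild-type mock cells 250 genes rose (1.25%) and 320 fell (1.61%), or 2.86% of genes in all. Of the 890 that rose with Hras, 137 also rose in mock cells, which is 15.4% of the first list and 54.8% of the second. No gene that fell with Hras rose in mock cells, and 12 that rose with Hras fell in mock cells. The difference between the effects, Hras minus mock, passed for 492 genes (2.47%), 408 with the more positive effect in Hras cells (2.05%) and 84 with the more negative (0.421%). It shares its Hras arrays with the effect itself, so the 340 of 890 rises that also passed as more positive are not independent support. For fat oxidation the difference was small: Cpt1a 0.12 ± 0.09, Hadhb 0.07 ± 0.08, Plin2 0.18 ± 0.07 and Acot1 -0.09 ± 0.12 did not pass. Angptl4 had the smaller effect with Hras (4.17 ± 0.11 in mock cells, difference -1.83 ± 0.15, adjusted p = 5.91e-07), and so did Decr1 (1.98 ± 0.10, difference -1.05 ± 0.14). The Hras virus by itself, in DMSO, gave 2.25 ± 0.11 for Angptl4 (adjusted p = 2.3e-13). Pdk4 had the larger effect with Hras (1.69 ± 0.12).

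In mock cells 3 of 49 cornified genes rose and 2 fell, and 1 of 31 barrier genes rose and 1 fell, against 1.25% and 1.61% of all genes. Alox12b measured -0.14 ± 0.17 in mock cells (difference 1.94 ± 0.25, adjusted p = 7.58e-05), Tgm1 0.00 ± 0.11 (difference 1.23 ± 0.15) and the collagenase gene Mmp13 -0.69 ± 0.22 (difference 2.09 ± 0.31). The difference was positive for 8 of 49 cornified genes, 8 of 31 barrier genes, 11 of 30 transcription factors of differentiation and 8 of 26 HIF targets, against 2.05% of all genes. Fos (0.39 ± 0.12 in mock cells, difference 1.37 ± 0.16), Hbegf (0.11 ± 0.06, difference 0.85 ± 0.08) and Serpinb9e (0.68 ± 0.19, difference 2.82 ± 0.26) had the larger effect with Hras too. Cholesterol synthesis went the other way: 17 of 20 genes rose in mock cells and 5 with Hras, and the difference was negative for 6, among them Insig1 (0.71 ± 0.06 in mock cells, difference -0.45 ± 0.09) and Lss (0.63 ± 0.06, difference -0.33 ± 0.09).

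**Figure D4:**
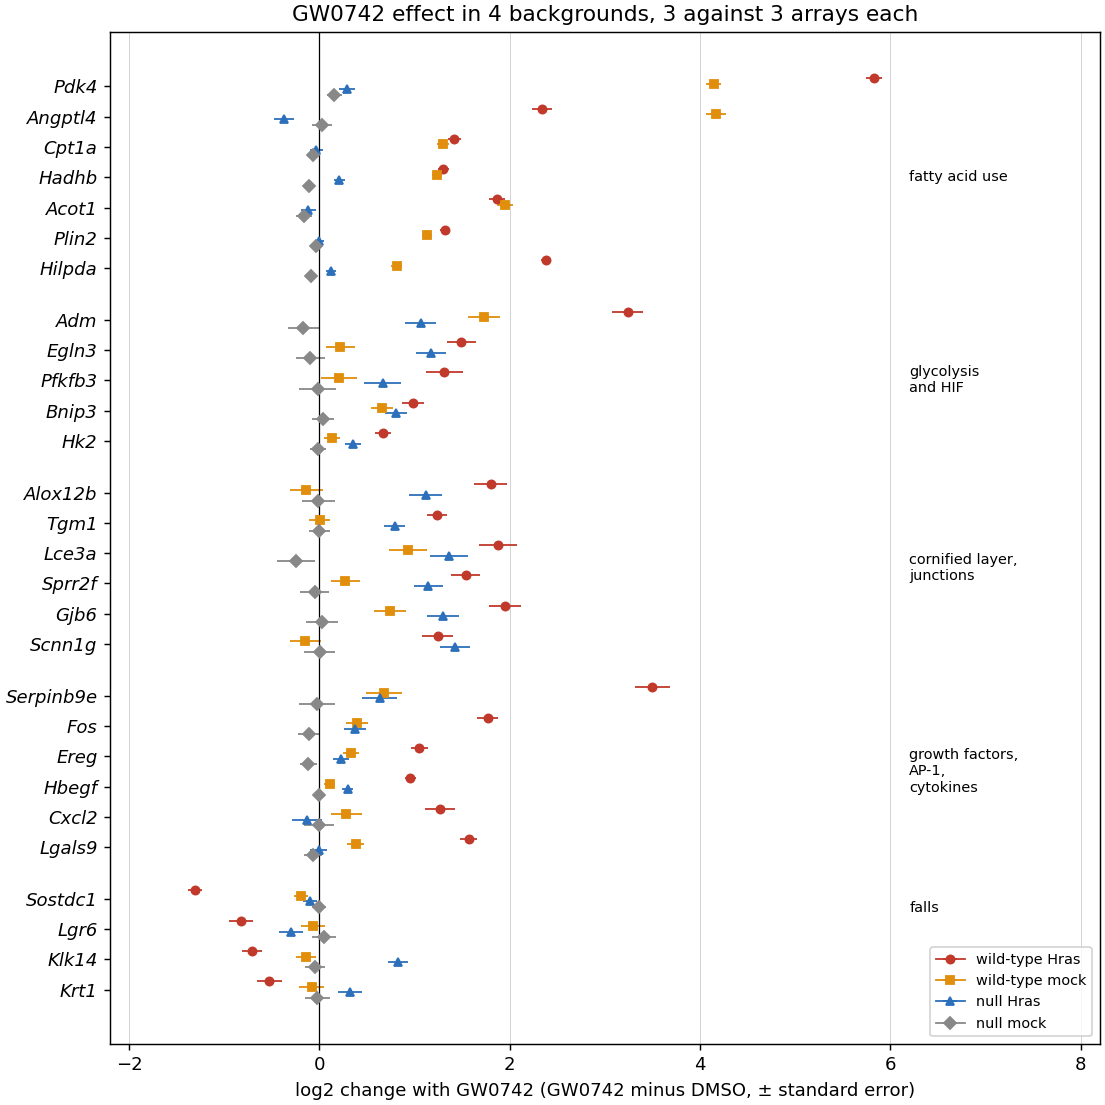
Log2 change with GW0742 (GW0742 minus DMSO, bars are the standard error, 3 against 3 arrays) for 28 genes in wild-type Hras, wild-type mock, null Hras and null mock cells. Fatty acid genes such as Cpt1a move in both wild-type backgrounds and stay near 0 in null cells, cornified genes such as Tgm1 move in both Hras backgrounds, and Fos, Hbegf and Sostdc1 move most in wild-type Hras cells.

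In null Hras cells 1001 genes passed (5.02%), 700 of them higher (3.51%), but the 3 GW0742 arrays of that background varied most of all groups, with a median SD of 0.122 against 0.0647 to 0.0798 elsewhere. With only the 6 null Hras arrays in the model 0 genes passed (lowest adjusted p = 0.0507), and leaving out each of those arrays in turn gave between 393 and 2539. Of the 890 genes that rose in wild-type Hras cells 359 also rose in null Hras cells (40.3%), a number that lay between 200 and 413 with 1 of those arrays left out. Melanocyte markers also rose with GW0742 in null Hras cells: 10 of 14 passed as higher than with DMSO (median change 0.30), against 1 of 14 in wild-type Hras cells. Their summed level was 8368 to 9064 on the null Hras DMSO arrays and 10490 to 12840 on the GW0742 arrays, and their part in the null Hras result was not tested. In null mock cells 0 genes passed by limma, with 1097 at an unadjusted p under 0.05.

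The difference of the effect, wild-type minus null in Hras cells, passed for 344 genes (1.73%), 241 positive (1.21%) and 103 negative (0.517%). With only the 12 arrays compared in the model it passed for 103 genes, 14 of them negative and the rest positive. The negative count was lowest with 1 array left out, at 54, without null Hras GW0742 array 2, and highest without null Hras GW0742 array 1. This difference too shares the wild-type Hras arrays. Genes of fatty acid use passed it: Pdk4 (0.29 ± 0.08 in null Hras cells, difference 5.54 ± 0.12, adjusted p = 3.31e-18), Angptl4 (2.71 ± 0.15), Hilpda (2.26 ± 0.08), Acot1 (1.98 ± 0.12), Cpt1a (1.45 ± 0.09) and Plin2 (1.32 ± 0.07). The cholesterol exporter Abca1 passed as well (1.48 ± 0.10). It was positive for 9 of 20 beta-oxidation genes and 5 of 16 thioesterases, against 1.21% of all genes. Of the 49 cornified genes it was positive for 0 and negative for 3, against 0.517% of all genes, at 32 rises in null Hras cells. The 3 were Flg2 (-0.73 ± 0.18), Rptn (-1.69 ± 0.30) and Tchh (-0.64 ± 0.16), 3 large proteins of 1 gene family. Of 18 glycolysis genes it was positive for 1, at 8 rises. For Alox12b the null effect was 1.12 ± 0.17 and the difference 0.68 ± 0.25 (adjusted p = 0.246), for Tgm1 0.79 ± 0.11 and 0.45 ± 0.15 (adjusted p = 0.21), for Scnn1g 1.42 ± 0.16 and -0.18 ± 0.23 (adjusted p = 0.871), and for Egln3 1.17 ± 0.15 and 0.32 ± 0.22 (adjusted p = 0.684). These adjusted p-values do not show that the effects are equal.

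The difference from null cells was positive for 2 of 17 EGF family genes, 5 of 24 immediate early genes and 7 of 41 cytokine genes, against 1.21% of all genes, and negative for 1 cytokine gene, Il18 (-0.88 ± 0.17). Most members of these lists did not pass. Fos measured 0.37 ± 0.12 in null Hras cells (difference 1.40 ± 0.16, adjusted p = 1.81e-05), Egr1 0.08 ± 0.14 (difference 0.93 ± 0.20), Hbegf 0.30 ± 0.06 (difference 0.66 ± 0.08), Ereg 0.23 ± 0.09 (difference 0.82 ± 0.13) and Lgals9 -0.01 ± 0.09 (difference 1.58 ± 0.13). The difference was also positive for Cxcl1 (1.44 ± 0.19), Cxcl2 (1.40 ± 0.23), Plat (0.88 ± 0.14) and Plaur (0.80 ± 0.12). Sostdc1 fell in wild-type Hras cells and measured -0.10 ± 0.07 in null ones (difference -1.21 ± 0.10, adjusted p = 2.17e-07). Klk14 went in opposite directions, at 0.83 ± 0.10 in null Hras cells (difference -1.53 ± 0.15, adjusted p = 1.22e-06). In all 92 of the 890 rises passed as more positive in both differences, 248 in the difference from mock cells alone and 103 in the difference from null cells alone.

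**Figure D5:**
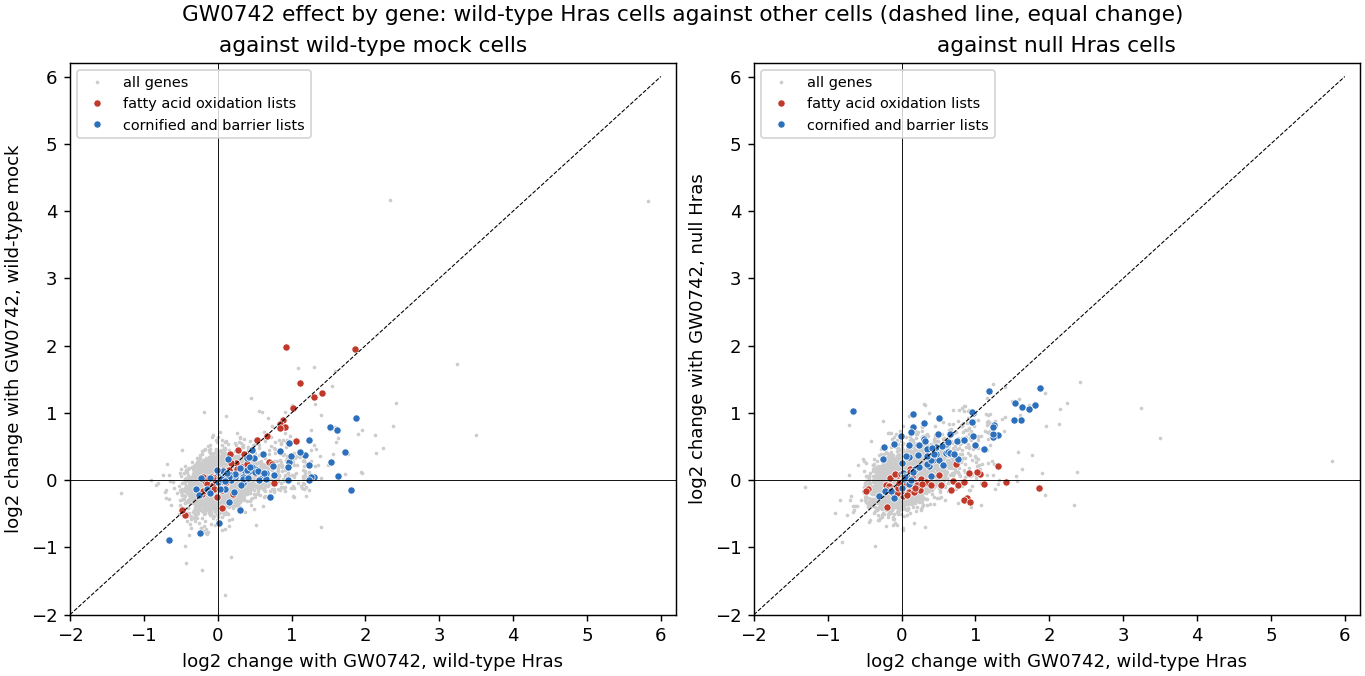
Log2 change with GW0742 in wild-type Hras cells (horizontal) against that in wild-type mock cells (left) or null Hras cells (right), one point per gene, with all 19937 genes in grey, the fatty acid oxidation lists in red and the cornified and barrier lists in blue. Against mock cells most red points lie along the line of equal change and most blue ones below it, and against null Hras cells most red points lie near 0 and the blue ones nearer the line.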

How the data were processed

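RNA from 24 mouse keratinocyte samples was hybridised to Affymetrix Mouse Gene 1.0 ST arrays, 3 per group in 8 groups. Expression values on the log2 scale, made with RMA per the submitters' processing notes, were deposited by the authors as 1 table. Of its version, nothing was given in the sources used here. RMA sets quantiles over the arrays together, so values were used as they stand. Arrays give no counts, and 3 arrays per group limit the precision. Of 34760 probe sets 21640 had 1 gene symbol, 1321 several and 11799 none. Only the first kind was used, and of several probe sets for a gene the one with the highest mean was kept, which left 19937 genes, 19854 of them matched to RefSeq (GRCm38.p6).

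All 24 arrays entered 1 limma model (version 3.58.1, R 4.3.3), with 1 mean per group, moderated variances and Benjamini-Hochberg adjustment over all genes tested. The arrays were taken from their titles, and the members and gene lists were chosen with earlier results of these data known. The genes named were the 15 largest rises and falls whose arrays did not overlap, the 10 largest differences of effect in each direction, up to 6 per list and a set of key genes. Predicted and unnamed transcripts were skipped in ranking rises, falls and differences, so some larger changes may go unnamed. Further list members are named for their roles. The promoter window of Sprr2f was chosen after its values were seen. Same-numbered arrays of the groups deviated together with correlations of 0.241, -0.0911 and -0.0207, so numbers were not taken as pairs. Alternatives were the array centring, a filter on dim genes, moderation, the arrays in the model, a minimum fold of 1.5, the replicate block and leaving out each array. Those for null Hras cells were added after the data were seen. On simulated data for 19937 genes, the effect in wild-type Hras cells was recovered for 92% of 100 genes changed 1.5-fold and 100% of 100 changed 2-fold, with 17 false among 209 calls. Tables and figures were made with Python 3.11.15, pandas 2.3.3 and matplotlib 3.10.9. Of the 1219 genes that passed, 936 are in no list, and most of those are counted without being named. Some genes are not analysed here.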

Additional observations from a re-analysis of the deposited data

Results flagged for a closer look

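In the difference of the GW0742 effect between wild-type Hras and wild-type mock cells, limma's test of the interaction passed for these named genes, given as log2 differences (Hras minus mock). The effect was more positive with Hras for the serpin gene Serpinb9e (2.82), the collagenase gene Mmp13 (2.09), the lipoxygenase gene Alox12b (1.94), the nuclease gene Dnase1l3 (1.84), the phosphatase gene Ppef1 (1.82), Skint9 (1.81), the phospholipase gene Pla2g4e (1.76), Pdk4 (1.69), the retinol dehydrogenase gene Dhrs9 (1.63) and Sdr9c7 (1.58). It was more negative for Angptl4 (-1.83), Sostdc1 (-1.11), Decr1 (-1.05), the olfactory receptor gene Olfr288 (-0.93), ceruloplasmin (Cp, -0.90), the carboxylesterase gene Ces2e (-0.84), Fbp2, a fructose bisphosphatase (-0.77), Lgr6 (-0.76), Syngr1 (-0.74) and Tmtc2 (-0.72).

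In the difference between wild-type Hras and null Hras cells, the interaction passed for the following genes, given as wild-type minus null. The effect was more positive in wild-type cells for Pdk4 (5.54), Serpinb9e (2.87), Angptl4 (2.71), Hilpda (2.26), Adm (2.17), Ppef1 (2.16), Acot1 (1.98), Snai3 (1.80), Lgals9 (1.58) and Abca1 (1.48). It was more negative for repetin (Rptn, -1.69), the kallikrein gene Klk14 (-1.53), Sostdc1 (-1.21), the desaturase gene Fads2b (-1.13), Sox7 (-1.0), the cytokine gene Il18 (-0.88), cornulin (Crnn, -0.85), Krt1 (-0.85), Krt75 (-0.83) and Ccdc3 (-0.79). Spread was widest in null Hras cells given GW0742, with a median SD of 0.122, and its part in these values was not tested.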

How the results depend on the processing

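Of 1219 genes that passed in wild-type Hras cells, 775 did with only the 6 arrays in the model and 294 against a minimum fold of 1.5, and 821 to 1111 with 1 array left out. The rises numbered 283 against the minimum fold and 664 to 843 with 1 array left out. The falls depended more on the setting: they numbered 502 with the 40% dimmest genes left out, 508 without the null Hras GW0742 group, 156 with only the 6 arrays, 11 against the minimum fold and 157 to 268 with 1 array left out (187 without DMSO array 1, 196 without DMSO array 2 and 157 without GW0742 array 3). The difference from mock cells passed for 212 genes against the minimum fold and 286 to 482 with 1 array left out. The difference from null cells passed for 103 genes with only the 12 arrays, 14 of them negative, and for 142 against the minimum fold. With 1 array left out it passed for 240 to 651, the most without null Hras GW0742 array 1. With the replicate block 1278 genes passed in wild-type Hras cells (924 higher, 354 lower), 567 in the difference from mock cells and 336 in that from null cells. Fewer arrays did not always mean fewer calls: 1517 genes passed in wild-type Hras cells without the null Hras GW0742 group. Why the counts changed between settings was not tested.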
